A study of Mus musculus with 43 samples.

Results

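The genes described here are the nuclear genes for subunits of mitochondrial oxidative phosphorylation, chosen as the rows of the deposited count table whose mouse symbol starts with Nduf and a subunit letter, Cox4 to Cox8, Uqcr, Atp5, or is Sdha, Sdhb, Sdhc or Sdhd. The rule matched 97 rows of 56941; 8 names ending in -ps were left out, and 89 members remained. By symbol, 40 belonged to complex I, 4 to complex II, 8 to complex III, 19 to complex IV and 18 to complex V. Atp5o appeared as 2 rows, so the members carried 88 symbols. Over all 43 libraries 76 members had a median of at least 100 counts and 9 had a median below 5. RefSeq lists Ndufa11b, Ndufs6b and Cox6c2 as pseudogenes, and the naming rule kept them. The rule used no measured value.

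Wild-type CD45.1 mice that had received no conditioning were given 5000000 whole bone marrow cells positive for JAK2V617F, an activating kinase mutation of myeloproliferative neoplasms, from CD45.2 donors. About 7 months later the marrow of 7 such mice was sorted into CD45.1 cells (host, 7 libraries) and CD45.2 cells (donor, 7 libraries), and CD45.1 cells were sorted from 8 age- and sex-matched wild-type mice without a transplant (controls, 8 libraries). Cells negative for CD45.1, CD45.2 and lineage markers (CD4 and CD8 of T cells, B220 of B cells, NK1.1, Ter119, and the myeloid markers CD11b and Ly-6G/Ly-6C) were sorted from the same animals as stroma (7 transplanted, 8 control). At 52 weeks, cells positive for CD45.1 and CD11b, a myeloid surface marker, were taken from 3 transplanted and 3 control male mice. Ages, the mouse line that carried the mutation and the number of donors were not given in the sources used here. No mice received marrow without the mutation, so the mutation and the transplantation cannot be told apart, and donor cells differ from controls in origin as well as genotype.

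Oxidative phosphorylation passes electrons from NADH through complex I, or from succinate through complex II, to complex III, cytochrome c and complex IV, which reduces oxygen. Complexes I, III and IV pump protons across the inner mitochondrial membrane, and complex V, the ATP synthase, makes ATP as the protons return. Most subunits are encoded in the nucleus and assemble with a few core subunits encoded by mitochondrial DNA. The nuclear genes are known targets of the transcription factors NRF1, GABPA (an ETS family member) and YY1, and several complex IV subunits exist as pairs of genes used in different tissues.

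Promoter windows show how the member genes look at their starts, whether or not a member passed a test. RefSeq gave a window (GRCm38.p6, 250 bases before to 50 after the gene start) for 67 of the 89 members. The NRF1 core GCGCATGC occurred on either strand in 14.9% of member windows and in 3.05% of all 27025 windows. The ETS core CCGGAAG occurred in 23.9% and 9.93%, and the YY1 core AAGATGGC in 13.4% and 3.19%. Any of the 3 cores occurred in 43.3% of member windows and 14.9% of all windows. Of the 9 member windows with the YY1 core, 7 belonged to complex I. Member windows were also richer in CpG than all windows, with a median of 19 CpG against 8 and a median GC content of 57% against 53.3%. A match is a description of the letters and was not tested as a binding site.

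The stretches below run from 100 bases before to 30 after the gene start, 5′ to 3′ on the gene's strand, which is the minus strand for all 6. For each complex the stretch shown belongs to the member with the smallest p among those higher in donor cells that hold a core there. Cox7a2l, which was lower in donor cells, is also shown and held none of the 3 cores there. A link between the cores and the expression differences was not tested. Capitals mark the matches. They are the NRF1 core or its reverse complement in Ndufa8 (chr2:36049309-36049438), the ETS core in Sdhd (chr9:50603820-50603949), both in Uqcr11 (chr10:80406792-80406921), the ETS core in Cox6a1 (chr5:115348929-115349058) and the NRF1 core in Atp5g2 (chr15:102671018-102671147), where matches on both strands overlap. Cox7a2l lies at chr17:83514304-83514433.
Ndufa8: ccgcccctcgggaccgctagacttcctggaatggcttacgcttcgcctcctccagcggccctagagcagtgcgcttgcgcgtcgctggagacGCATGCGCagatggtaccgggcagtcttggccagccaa
Sdhd: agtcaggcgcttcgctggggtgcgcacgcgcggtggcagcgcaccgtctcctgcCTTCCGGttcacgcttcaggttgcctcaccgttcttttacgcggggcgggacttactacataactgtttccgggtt
Uqcr11: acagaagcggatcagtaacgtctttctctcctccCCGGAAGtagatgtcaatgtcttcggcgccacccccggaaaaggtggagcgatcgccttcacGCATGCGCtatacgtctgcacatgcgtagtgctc
Cox6a1: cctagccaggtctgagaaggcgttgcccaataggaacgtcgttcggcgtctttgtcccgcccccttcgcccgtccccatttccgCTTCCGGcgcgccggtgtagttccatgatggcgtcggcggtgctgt
Atp5g2: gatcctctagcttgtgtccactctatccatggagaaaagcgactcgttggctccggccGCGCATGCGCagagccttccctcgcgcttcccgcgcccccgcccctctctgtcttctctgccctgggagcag
Cox7a2l: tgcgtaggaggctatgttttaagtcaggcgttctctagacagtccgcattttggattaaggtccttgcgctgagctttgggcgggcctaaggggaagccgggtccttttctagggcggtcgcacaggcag

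Library totals were 15713119 to 19683698 counts for host, donor and control libraries, 41210646 to 143228988 for stroma and 32478800 to 44853593 for CD11b cells. Stroma libraries were made with a low-input kit and run on another instrument than the rest, so tests between groups stay within a kind of library except for the interactions named as such. Marker genes of marrow stroma summed to 1781 to 9368 transcripts per 1000000 (TPM) in stroma libraries and to at most 7.83 TPM in the CD45-sorted libraries. Neutrophil markers summed to 10224 to 44829 TPM in control stroma and to 6694 to 62120 TPM in transplanted stroma, although the sort excluded myeloid markers. Stroma libraries thus also held RNA of other cells, and its part in the member values was not tested. Some libraries stood apart and are named where they matter. Control N051 was high in many members, and stroma of transplanted animal N032 had the lowest summed stromal and neutrophil markers of its group (1781 and 6694 TPM) and the highest cell division markers (1450 TPM). Per the labels N032 was euthanized on 5/23/2023, and all other animals of the 7-month groups between 4/24/2023 and 5/4/2023. No control shared the day of N032.

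Members together made up 1.41% ± 0.0801 (SD, n = 8) of all transcripts, as TPM, in control CD45.1 cells. The share was 1.63% ± 0.159 (n = 7) in host cells and 1.73% ± 0.156 (n = 7) in donor cells. Controls ran from 1.33% to 1.55%, host from 1.47% to 1.93% and donor from 1.49% to 1.97%, so the groups overlapped, with control N051 the highest of its group. Animal N005 was highest and N014 next in both host and donor cells, which came from the same marrow. In CD11b cells the 3 controls were at 1.05%, 1.079% and 1.10% and the 3 transplanted at 1.16%, 1.23% and 1.43%, without overlap. In stroma, from libraries made with another kit, the share was 2.52% ± 0.188 (n = 8) in controls. In stroma of transplanted mice it was 2.38% ± 0.712 (n = 7), from 1.91% to 3.96%; without N032, which held the highest value, it was 2.12% ± 0.169 (n = 6), and the highest remaining value, 2.383%, lay just above the lowest control, 2.376%. The mean share of the 13 subunit genes of mitochondrial DNA was 3.48% in controls, 3.41% in host and 3.56% in donor cells.

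**Figure D1:**
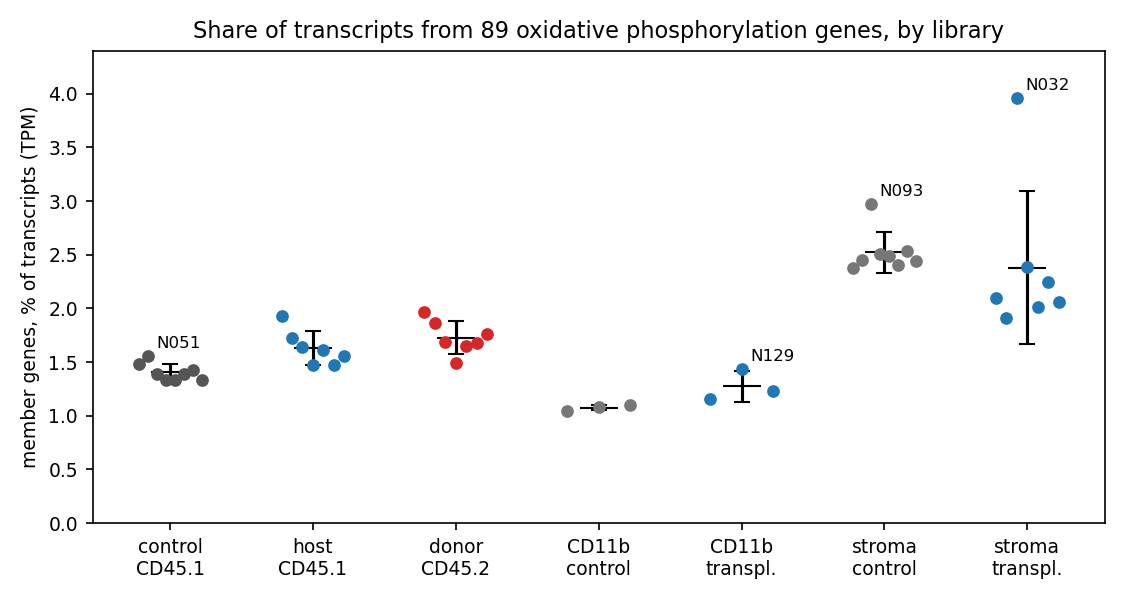
Share of all transcripts (TPM, percent) from the 89 members in each library, by group; points are libraries and bars are group means with SD. Host and donor cells lie mostly above controls, CD11b cells of transplanted mice lie at 1.16 to 1.43% against 1.05 to 1.10%, and stroma N032 stands at 3.96%.

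Donor JAK2V617F cells had more RNA of most members than control CD45.1 cells. Counts were scaled to CPM (counts per 1000000, after TMM scaling within each comparison) and tested with edgeR's quasi-likelihood test, with p adjusted by Benjamini-Hochberg over all genes; a member passed below 0.05. Of 78 members tested, 54 were higher and 2 lower, against 22.7% of all genes tested that were higher and 23% that were lower. Without control N051, 69 members were higher, against 24% of all genes. N051 was singled out for its high member values, so that count is not an independent test of the members. In 16 members every donor library lay above every control, beside 6.84% of all genes, and in 1, Cox6a2, every donor library lay below, beside 9.77%. By complex, 24 of 36 tested members of complex I, 4 of 4 of II, 7 of 8 of III, 8 of 13 of IV and 11 of 17 of V were higher, and both lower members belonged to complex IV. The median log2 difference of the members was 0.29, with 74 of 78 positive, beside -0.0010 for all genes. The complex medians lay close together, at 0.30 for I, 0.31 for II, 0.33 for III, 0.25 for IV and 0.27 for V. In bulk libraries, a difference in the share of a cell type and a difference in RNA per cell cannot be told apart.

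**Figure D2:**
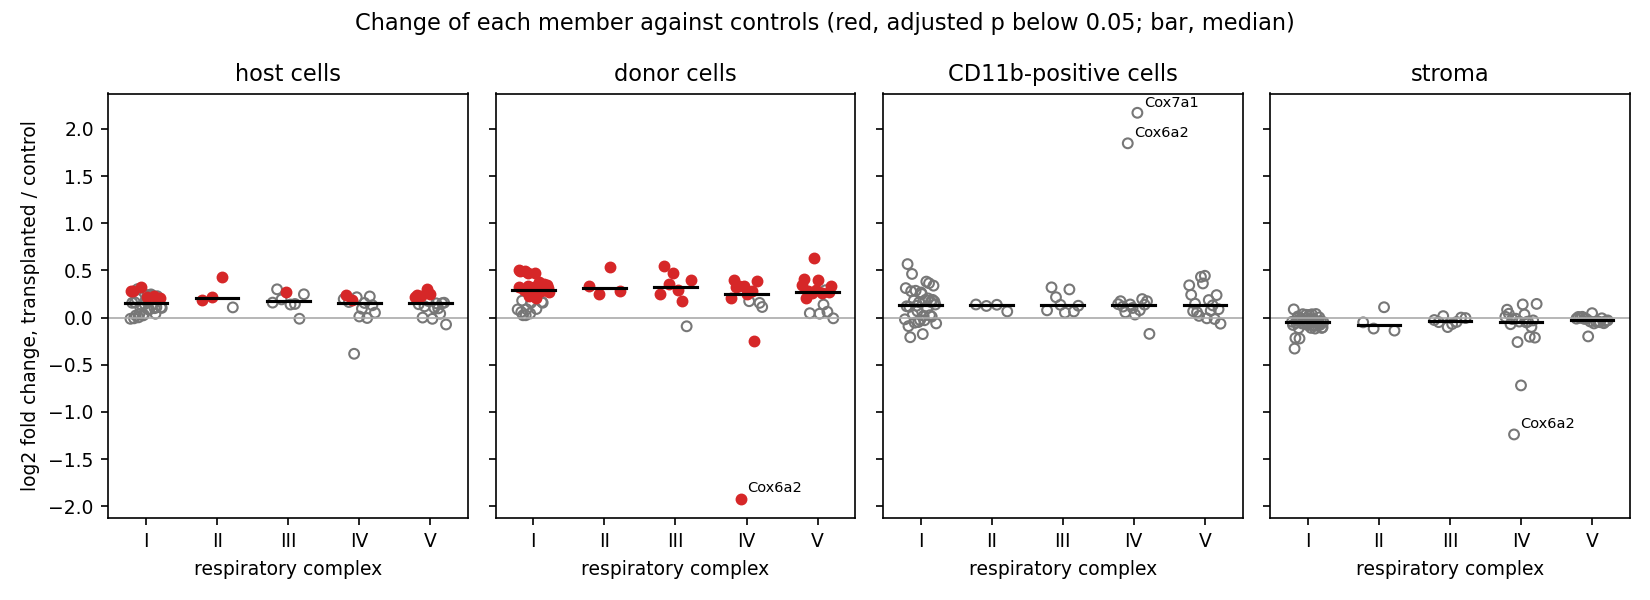
Log2 difference of each tested member by complex in each comparison with controls; red filled points passed edgeR's adjusted p below 0.05 and lines are complex medians. Complex medians lie between 0.25 and 0.33 in donor cells and between 0.15 and 0.21 in host cells, with Cox6a2 far below the others in donor cells.

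In complex I, Ndufa10, an accessory subunit, ran from 67.2 through a median of 78.2 to 85.6 CPM in donor cells and from 51.9 through 54.2 to 58.1 in controls. Every donor library lay above every control (log2 difference 0.51, SE 0.057, edgeR adjusted p 1.65e-06). Ndufa9, which sits near the quinone site, was at 50.1, 58.6 and 69.0 CPM (lowest, median, highest) in donor cells and 38.9, 41.4 and 47.4 in controls, again without overlap (0.48, edgeR adjusted p 2.25e-05). Ndufs1, an iron-sulfur subunit of the electron input module, was at 65.9, 74.4 and 77.1 CPM against 51.2, 55.3 and 64.4, also without overlap (0.36, edgeR adjusted p 3.86e-05). Ndufv1, which binds the flavin that accepts electrons from NADH, rose by 0.34 (edgeR adjusted p 2.93e-04), with overlapping groups. The groups did not overlap for Ndufa12 and Ndufa8 either, with log2 differences of 0.50 and 0.33.

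All 4 subunits of complex II, succinate dehydrogenase, which also works in the citric acid cycle, were higher in donor cells. Sdhc, a membrane anchor, ran from 57.2 through 69.2 to 74.8 CPM in donor cells and from 42.3 through 47.3 to 51.05 in controls, without overlap (0.53, SE 0.062, edgeR adjusted p 2.5e-06). Sdha, the flavoprotein, was at 193, 215 and 232 CPM against 148, 172 and 185, also without overlap (0.34, edgeR adjusted p 1.47e-04). Sdhd, the other anchor, rose by 0.29 and Sdhb, the iron-sulfur subunit, by 0.25, both with overlapping groups.

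In complex III, Uqcrc1, a core protein, ran from 181 through 209 to 229 CPM in donor cells and from 129.2 through 153 to 157 in controls. The groups did not overlap (0.47, SE 0.061, edgeR adjusted p 6.87e-06). Uqcr11, a small subunit, was at 38.1, 40.4 and 51.2 CPM against 25.4, 28.0 and 41.5. It had the largest log2 difference of the complex, 0.54 (edgeR adjusted p 2.73e-04), and overlapped only through control N051, at 41.5 CPM. Uqcrfs1, the Rieske iron-sulfur protein, rose by 0.18 (edgeR adjusted p 0.0189).

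Complex IV was the complex in which members moved both ways. Cox5a ran from 105 through 118 to 140 CPM in donor cells and from 86.0 through 89.8 to 96.0 in controls, without overlap (0.40, edgeR adjusted p 3.4e-05). Cox6a1, Cox6b1, Cox7a2 and Cox4i1, the widely expressed forms of their subunits, rose by 0.34, 0.34, 0.28 and 0.20, and Cox6b2, a form known from testis, rose by 0.25 (edgeR adjusted p 0.0268). When day of euthanasia was a block, Cox6b2 did not pass (0.21, edgeR adjusted p 0.108). Cox8a, at 124, 139 and 147 CPM in donor cells and 117, 124 and 163 in controls, did not pass (0.11, edgeR adjusted p 0.200) but did with that block (0.21, edgeR adjusted p 0.00519).

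Cox6a2, the form of subunit VIa known from heart and skeletal muscle, fell most of all members. It ran from 1.11 through 1.24 to 1.88 CPM in donor cells and from 3.16 through 5.18 to 7.88 in controls, so every donor library lay below every control (log2 difference -1.92, SE 0.18, edgeR adjusted p 1.6e-07). A list of 10 skeletal muscle genes summed to 0.74 to 1.85 TPM in donor cells and 1.33 to 2.90 in controls. Of these, Myh1, Myh2, Myh4 and Mb were listed at 0 TPM in every control, host and donor library, and Tnnt3, the only one that passed the low-count filter, was lower in donor cells (-0.87, edgeR adjusted p 0.0320). Their part in the Cox6a2 difference was not tested. Cox7a2l, which helps join complexes III and IV into supercomplexes, was at 103, 119 and 125 CPM against 118, 130 and 180 (-0.24, SE 0.083, edgeR adjusted p 0.0238). The groups overlapped, and this call was lost on the TPM scale (-0.19, limma adjusted p 0.0689), with total-count scaling, in either sex alone, and without donor N204 or donor N032.

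**Figure D3:**
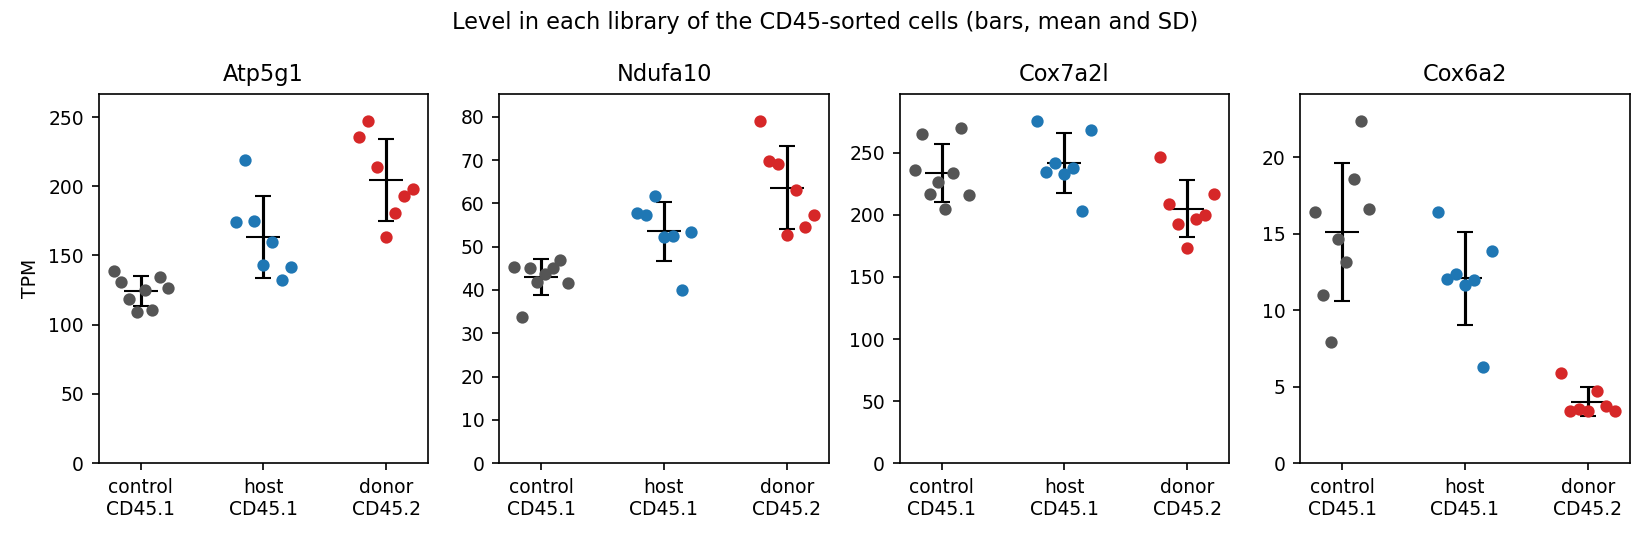
TPM of Atp5g1, Ndufa10, Cox7a2l and Cox6a2 in every control, host and donor library; points are libraries and bars are group means with SD. Cox6a2 averages 15.1 TPM in controls, 12.1 in host and 4.02 in donor cells, while the mean of Atp5g1 goes from 124 to 164 and 204.4.

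Complex V followed the same direction. Atp5b, the catalytic beta subunit and the member with the highest level in controls (1010 TPM), ran from 740 through 809 to 925 CPM in donor cells and from 585 through 624 to 663 in controls, without overlap (0.40, edgeR adjusted p 3.86e-05). Atp5a1, the alpha subunit, was at 585, 657 and 712 CPM against 486, 507 and 549, also without overlap (0.34, edgeR adjusted p 2.0e-04). The proton-carrying c-ring is encoded by 3 genes for the same mature protein. Atp5g1 had the largest log2 difference of the members that rose, at 64.9, 76.8 and 94.9 CPM against 42.9, 48.7 and 58.7 (0.63, SE 0.080, edgeR adjusted p 6.17e-06). Atp5g3, at 143, 164 and 178 CPM against 113, 120 and 130, rose by 0.40 and Atp5g2 by 0.29, and of the c-ring genes only Atp5g2 had overlapping groups.

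Host CD45.1 cells of the same mice, which do not carry the mutation by design, also had more RNA of some members than controls. Of 78 members tested, 17 were higher and 0 lower against 8.61% of all genes tested that were higher and 7.82% that were lower. At an unadjusted p below 0.05, 36 members were higher and 1 lower, against 16.9% and 14.9% of all genes. DESeq2 gave 22 higher and 0 lower, and limma-voom 17 and 0. The shares of all genes called by those tools are not given here, so these counts show only how calls vary with the tool. The median log2 difference of the members was 0.16, with 71 of 78 positive, beside 0.0078 for all genes. The members that passed were 6 of 36 in complex I, 3 of 4 in II, 1 of 8 in III, 2 of 13 in IV and 5 of 17 in V, with complex medians of 0.16, 0.21, 0.18, 0.16 and 0.15. All 17 were also higher in donor cells, in a comparison that used the same control libraries.

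In 6 members every host library lay above every control, beside 1.91% of all genes tested whose host libraries all lay above the controls. Ndufa9 ran from 47.5 through 53.8 to 59.1 CPM in host cells and from 39.2 through 41.4 to 47.4 in controls (0.33, SE 0.062, edgeR adjusted p 0.00238), so the nearest libraries of the groups were almost at the same level. Sdhc was at 51.5, 61.7 and 84.2 CPM against 42.3, 47.1 and 51.4 (0.43, edgeR adjusted p 0.00281), the largest log2 difference, with host N269 highest. Ndufa10 was at 59.2, 66.1 and 74.6 CPM against 52.0, 54.0 and 58.6 (0.28, edgeR adjusted p 0.00299). The host medians of these 3 members lay between the medians of controls and donor cells. Cox5a was at 99.7, 106.8 and 116.2 CPM against 85.7, 89.3 and 96.2 (0.24, edgeR adjusted p 0.00376). Uqcrc1 was at 157, 187.2 and 193 CPM against 129.4, 153 and 157 (0.27, edgeR adjusted p 0.00497), and Atp5b at 673, 740 and 827 against 586, 625.03 and 655 (0.24, edgeR adjusted p 0.0101). These 6 members include at least 1 of each complex.

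The other members that passed in host cells included Ndufv1, Ndufb5 and Ndufa12 of complex I, Sdha and Sdhb of II, Cox6a1 of IV, and Atp5g3, Atp5a1, Atp5g1 and Atp5d of V, with log2 differences from 0.19 to 0.31. Their groups overlapped. When day of euthanasia was a block, 25 members were higher in place of 17, against 6.39% of all genes, and some calls differed. Atp5b (0.20, edgeR adjusted p 0.0522), Atp5g3 (0.22, 0.0568), Atp5a1 (0.17, 0.0842), Sdha (0.14, 0.0967) and Ndufv1 (0.14, 0.214) no longer passed. Uqcrq (0.35, edgeR adjusted p 0.0190), Cox6b1 (0.31, 0.0189), Cox7a2 (0.29, 0.0253), Ndufs1 (0.24, 0.0210), Ndufa4 (0.23, 0.0449) and Cox4i1 (0.21, 0.0256) passed with it. Without the block these 6 had adjusted p from 0.0503 to 0.313. Only 5 days held both groups, so the block compared 5 same-day pairs, in the donor comparison too. Controls N051, N288 and N093 and animals N005 and N032, whose days held a single group, did not enter the group difference in that fit. The effect of the day and that of leaving out these animals cannot be told apart there. Ndufa4 carries a complex I symbol and is now placed in complex IV.

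A single control library weighed heavily on the host count. Control N051 was the highest control for Cox4i1, Cox6b1, Cox7a2, Ndufa4, Uqcrq and others, and without it 46 members were higher in host cells, against 9.44% of all genes. These were 16 of complex I, 4 of II, 7 of III, 8 of IV and 11 of V. N051 was singled out for its high member values, so leaving it out raises the count in part by that choice. The excess over all genes without N051 is therefore not an independent test of the members. Uqcrq then differed by 0.32 (edgeR adjusted p 0.00324), Cox6b1 by 0.30 (0.00243), Ndufa4 by 0.28 (0.0104), Cox7a2 by 0.26 (0.0153), Cox4i1 by 0.24 (0.00826) and Atp5g2 by 0.22 (0.0353). For other members N051 was the lowest control, among them Atp5b (586 CPM), Sdha (148), Uqcrc1 (129.4), Ndufa10 (52.0) and Ndufv1 (48.5). Ndufv1 no longer passed without N051 (0.17, edgeR adjusted p 0.0526). In the other direction, 10 members were higher without control N208 and 11 without host N014. The shares of all genes in those fits are not given here. Cox6a2, at 2.27, 4.18 and 4.92 CPM in host cells and 3.19, 5.16 and 7.78 in controls, did not pass (-0.38, edgeR adjusted p 0.152), and Cox7a2l did not either (edgeR adjusted p 0.977).

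Cell type markers moved with these groups. B-lineage markers were lower in host cells for 10 of 10 genes (82.9 to 337 TPM summed, against 254 to 680 in controls) and lower still in donor cells (13.1 to 38.3 TPM, 10 of 10). Monocyte and macrophage markers were higher for 9 of 10 genes in host cells (2610 to 3224 TPM against 2084 to 2457) and 7 of 9 in donor cells. Primary granule genes of immature neutrophils were higher for 3 of 6 and 6 of 6 (8219 to 12979 and 9648 to 15565 TPM against 5041 to 9892). Cell division genes were higher for 2 of 11 in host and 9 of 11 in donor cells (donor 1323 to 1645 TPM against 983 to 1380), whereas 0 of 10 neutrophil markers passed in either. The neutrophil markers had a median log2 difference of -0.35 in host and -0.20 in donor cells. They summed to 118559 to 170810 TPM in controls (median 163410), 79799 to 198582 in host (110802) and 74178 to 181857 in donor cells (134298). N005 had the lowest neutrophil sum in host and in donor cells, and N269 the highest. N005 had the highest member share in both, and N269 the lowest in host cells alone. T and NK cell markers were lower for 9 of 10 genes in donor cells and higher for 1, Nkg7, and 6 of 11 erythroid markers were higher and 2 lower there. The part of these markers in the member differences was not tested.

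Donor and host cells sorted from the same marrow were compared directly. Of 78 members, 7 were higher and 2 lower in donor cells, against 4.17% of all genes that were higher and 9.94% that were lower, and the median log2 difference was 0.12 with 73 positive. With the animal as a block, which uses the pairing of the libraries, 35 members were higher, against 15.2% of all genes, and Cox6a2 and Cox7a2l were lower (Cox6a2 -1.53, edgeR adjusted p 4.33e-06; Cox7a2l -0.24, 3.46e-04). Cox6a2 ran from 1.12 through 1.26 to 1.90 CPM in donor cells and from 2.27 through 4.21 to 5.03 in host cells, without overlap (-1.54, SE 0.18, edgeR adjusted p 1.27e-05 without the block). Cox7a2l was at 104, 120 and 127 CPM against 128.7, 134 and 152, also without overlap (-0.24, edgeR adjusted p 0.00986). Every donor library of these 2 complex IV members thus lay below every host library, beside 4.28% of all genes, and no member had every donor library above, beside 0.739% of all genes.

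Without the block, the members higher in donor than in host cells were Atp5g1 (0.32, edgeR adjusted p 0.0229), Ndufs5 (0.25, 0.0342), Ndufa10 (0.23, 0.0269), Ndufa8 (0.22, 0.0394), Uqcrc1 (0.20, 0.0459), Sdhd (0.18, 0.0281) and Uqcrc2 (0.16, 0.0457), all with overlapping groups. With the animal as a block, Atp5g1 kept a log2 difference of 0.32 (edgeR adjusted p 6.66e-05) and Ndufa10 of 0.23 (9.01e-05). Sdha (0.15, edgeR adjusted p 0.0716) and Atp5j (0.16, 0.0974), a subunit of the coupling factor of the ATP synthase, passed with the block (0.00205 and 0.00413). Sdha also passed by DESeq2, with median-of-ratios scaling and without donor N203, and Atp5j without host N269.

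In stroma, none of 87 tested members passed in either direction by edgeR, DESeq2 or limma-voom, against 1.49% of all genes in either direction, and at an unadjusted p below 0.05 edgeR had 0 higher and 2 lower, against 3.72% and 4.25% of all genes. The 2 were Cox6a2 (-1.24, edgeR adjusted p 0.456) and the annotated pseudogene Cox6c2 (-0.72, 0.461), both at or below 1.66 CPM. The median log2 difference was -0.04, with 67 of 87 negative, beside 0.04 for all genes. This median changed sign under upper-quartile scaling (0.08, beside 0.13 for all genes) and without transplanted N005 (0.01). Ndufa12, an accessory complex I subunit, ran from 85.3 through 106 to 245 CPM in stroma of transplanted mice and from 125 through 138 to 163 in controls. Atp5g1 was at 113, 137 and 455 CPM against 171, 193 and 260. In both, N032 was the highest library while the transplanted median lay below the lowest control.

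Leaving out N032 changed what the test called. Then 2 members were lower, Ndufa12 (-0.48, edgeR adjusted p 0.0203) and Atp5g1 (-0.56, 0.0412), against 1.5% of all genes that were lower. At an unadjusted p below 0.05, 33 members were lower, against 8.12% of all genes, and the median log2 difference was -0.19, beside 0.02 for all genes. N032 was singled out for its high member values, so leaving it out lowers the members in part by that choice. The excess over all genes is therefore not an independent test of the members. Markers of other cells also moved in stroma: erythroid markers were higher for 5 of 11 genes (10207 to 72864 TPM summed, against 2377 to 7954) and monocyte and macrophage markers for 3 of 10. Stromal markers summed to 1781 to 6681 TPM in transplanted and 3863 to 9368 in control libraries, and 0 of 10 passed. Their part in the member values was not tested.

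**Figure D4:**
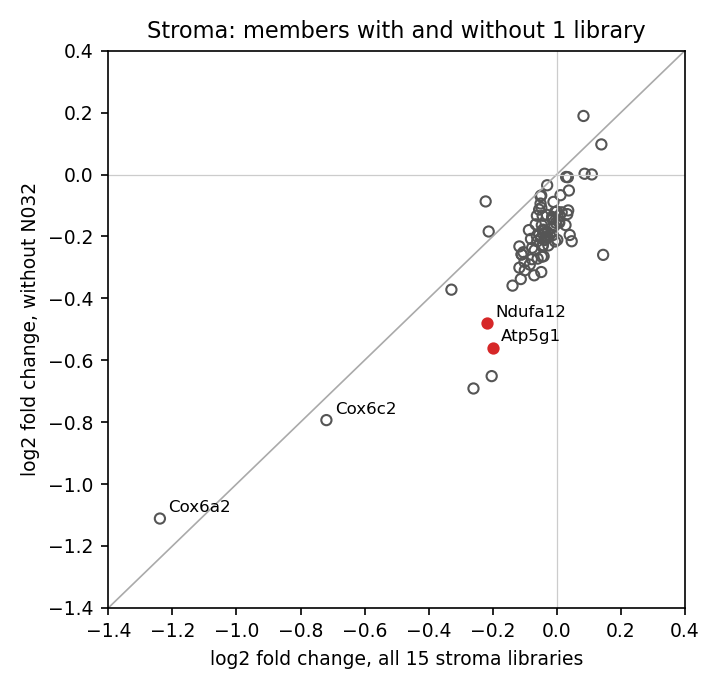
Log2 difference of each tested member between stroma of transplanted and control mice, with all libraries (horizontal axis) and without transplanted N032 (vertical axis); the diagonal marks equal values. Most members lie below the diagonal, and the median moves from -0.04 to -0.19.

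The transplant difference in stroma was tested against that in host cells as an interaction. Stroma and CD45.1 libraries came from the same 15 animals, which the fits without a block treated as separate samples. With all libraries 0 of 82 members passed by edgeR against 2.79% of all genes in either direction, with a median of -0.17. At an unadjusted p below 0.05, 0 were higher and 1 lower, against 7.13% and 5.59% of all genes. Without N032, 29 members had a lower difference in stroma than in host cells, against 5.27% of all genes, and the median was -0.35. They were 12 of complex I, 2 of II, 4 of III, 6 of IV and 5 of V. Ndufa12 (-0.75, edgeR adjusted p 6.5e-04), Atp5g1 (-0.85, 9.1e-04) and Ndufa9 (-0.52, 0.00336) were among them. With the animal as a block, a fit added after seeing the data, 0 members passed with all libraries, against 0.722% of all genes higher and 1.29% lower. At an unadjusted p below 0.05 that fit had 0 members higher and 4 lower, against 6.18% and 5.8% of all genes. Without N032, 10 members were lower with the block, against 3.18% of all genes, Ndufa12 (edgeR adjusted p 0.00864), Atp5g1 (0.00880) and Ndufa9 (0.0330) among them. The call of a difference between stroma and host cells rests on whether N032, singled out for its high member values, is kept, with or without the block. Kit and instrument differ between these kinds of library and cannot be told apart from the kind of cell.

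In CD11b cells at 52 weeks, none of 79 tested members passed by edgeR, against 0% of all genes in either direction. At an unadjusted p below 0.05, 15 were higher and 0 lower by edgeR, 13 higher by DESeq2 and 14 by limma-voom, and both of those tools also gave 0 after adjustment. At that unadjusted threshold 9.06% of all genes were higher and 7.37% lower by edgeR, 8.39% higher by DESeq2 and 8.12% by limma-voom. The median log2 difference was 0.13, with 66 of 79 positive, beside 0.02 for all genes. With total-count scaling the all-gene median itself was 0.13 and that of the members 0.25. In 16 members all 3 transplanted libraries lay above all 3 controls, beside 12.2% of all genes.

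Members with an unadjusted p below 0.05 came from complexes I, III, IV and V. Atp5g1 was at 28.4, 25.9 and 28.8 CPM in control N168, N112 and N128 and at 37.9, 31.6 and 42.5 in transplanted N187, N116 and N129 (0.43, edgeR adjusted p 0.270). Atp5g2 was at 46.5, 40.0 and 43.5 against 53.4, 49.4 and 64.2 (0.36, edgeR adjusted p 0.270), and Ndufc2, an accessory complex I subunit, at 22.8, 20.6 and 21.4 against 29.8, 23.9 and 30.8 (0.38, edgeR adjusted p 0.270). In all of these the transplanted libraries lay above the controls, with N116 the lowest transplanted library. Atp5a1 was at 328, 286 and 300 CPM against 361, 342 and 456 (0.34, edgeR adjusted p 0.273). Cox8a had the opposite sign (-0.17, edgeR adjusted p 0.368). Neutrophil markers summed to 236828 to 342981 TPM in transplanted and 358620 to 370879 in control CD11b libraries, lowest in N129, the library with the highest member share. Other marker sums were higher in the transplanted libraries without overlap: monocyte and macrophage markers at 2516 to 3258 TPM against 2104 to 2146, primary granule genes at 5552 to 8349 against 4240 to 4754, T and NK cell markers at 169 to 302 against 129.5 to 142, and cell division genes at 879 to 1330 against 824 to 859. None of the genes of these lists passed by edgeR, and the part of these markers in the member values was not tested.

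Cox7a1, the heart and skeletal muscle form of subunit VIIa, and Cox6a2 were close to the limit of detection in CD11b cells and had the largest log2 differences there. Cox7a1 was at 0.0993, 0.115 and 0.05001 CPM in controls and 0.305, 0.306 and 0.597 in transplanted libraries (2.17, edgeR adjusted p 0.270). Cox6a2 was at 0.0993, 0 and 0.150 against 0.244, 0.376 and 0.318 (1.85, edgeR adjusted p 0.335). Neither passed. Skeletal muscle markers summed to 26.1 TPM in transplanted N187, 0.66 in N116, 1.14 in N129 and 1.45 to 3.11 in controls. Their part in these values was not tested. The interaction of CD11b and host cells called 0 of 79 members by edgeR against 0.109% of all genes (2 higher and 1 lower at an unadjusted p below 0.05, against 7.39% and 5.24% of all genes), and Cox6a2 had its smallest p (2.17, edgeR adjusted p 0.105).

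Paired forms of the same subunit separated the kinds of cell by level, here as TPM, which is per length; levels in stroma come from another kit. Cox4i2, the oxygen-sensitive form of subunit IV known from lung, averaged 119 TPM in control and 119.5 in transplanted stroma, and at most 0.98 TPM in the CD45-sorted and CD11b groups, where Cox4i1 was at 359 to 686. Ndufa4l2, a paralog of Ndufa4 known as a hypoxia-induced gene, averaged 189 TPM in control and 152 in transplanted stroma, and at most 0.189 in those other groups. Neither passed the test between stroma of transplanted and control mice, with log2 differences of 0.08 and -0.22 (edgeR adjusted p 0.998 and 0.996).

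Cox6a2 ran the other way between kinds of cell. It averaged 15.1 TPM ± 4.49 (SD, n = 8) in control CD45.1 cells, 12.1 ± 3.06 (n = 7) in host, 4.02 ± 0.952 (n = 7) in donor, 2.12 in control stroma and 0.197 in control CD11b cells, while Cox6a1 averaged from 284 to 765 TPM in every group. Cox7a1 averaged 0.427 to 2.76 TPM, beside 158 to 346 for Cox7a2. Cox8b, the muscle form of subunit VIII, was listed at 0 in every control, host and donor library and averaged 1.19 TPM in control stroma. Of the c-ring genes, Atp5g3 led in control CD45.1 cells (297 TPM, with Atp5g2 at 275 and Atp5g1 at 124), whereas Atp5g1 led in control stroma (602 TPM, with Atp5g3 at 334 and Atp5g2 at 220). In donor cells the order was that of controls, at 416, 344 and 204.4 TPM for Atp5g3, Atp5g2 and Atp5g1.

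**Figure D5:**
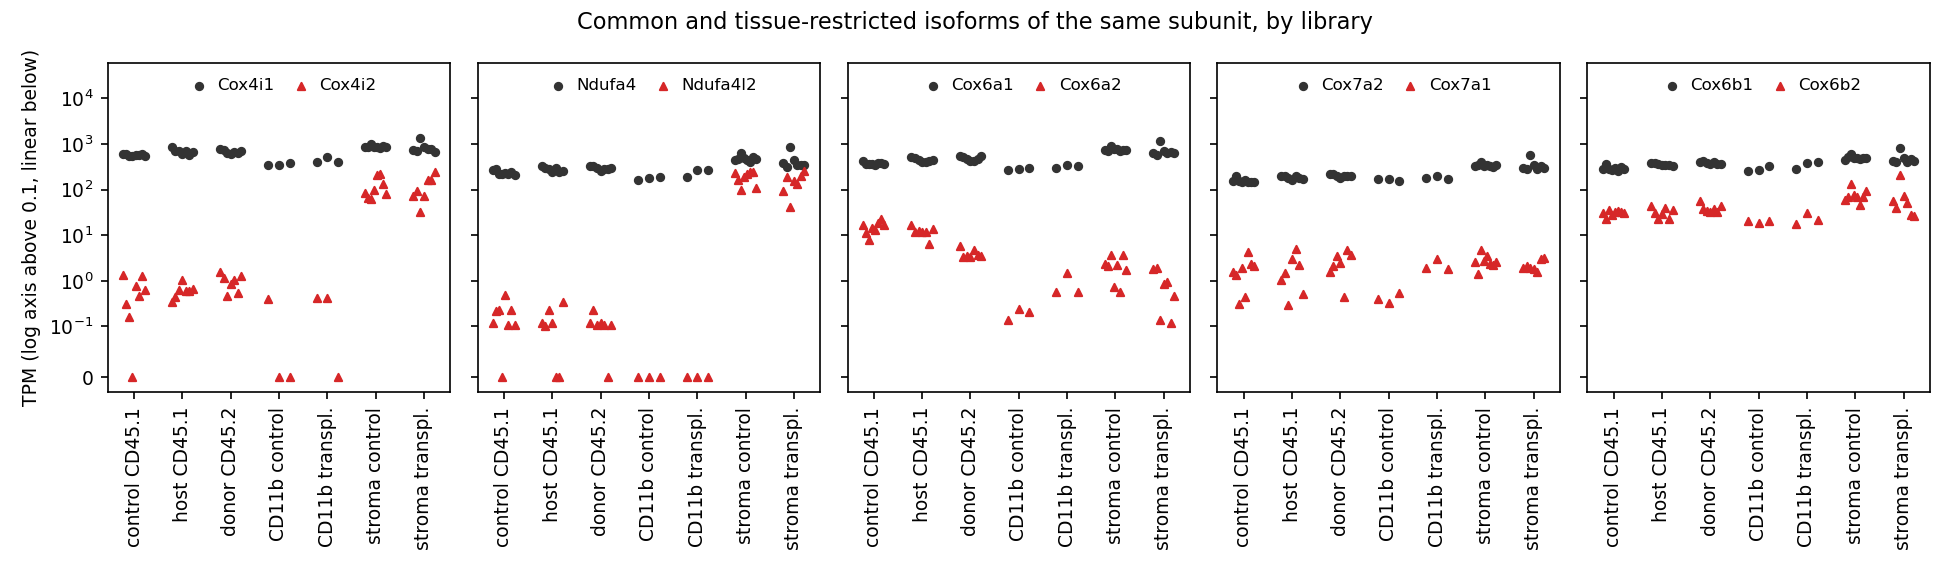
TPM of paired forms of complex IV subunits and of Ndufa4 and Ndufa4l2 in every library by group, on a log axis with values of 0 drawn at the lower edge; points are libraries. Cox4i2 and Ndufa4l2 are above 30 TPM in stroma libraries alone, and Cox6a2 is highest in control and host CD45.1 cells.

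Not all members could be measured. In host, donor and control libraries 11 members failed the low-count filter: Ndufa11b, Ndufa4l2, Ndufb4c, Ndufs6b, Cox4i2, Cox6c2, Cox7a1, Cox7b2, Cox8b, Cox8c and the second Atp5o row. In CD11b cells the same members except Cox7a1 failed it, and in stroma only Ndufs6b and the Atp5o row. Ndufb4c and Cox6c2 are named as copies of Ndufb4 and Cox6c, and where copies are near-identical the counting could split their reads, so their values are uncertain. Ndufb4c failed the filter by counts but averaged 40.5 TPM in controls.

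Other genes of the pathway, outside the naming rule, moved in the same direction in part. Of 16 tested enzymes of the citric acid cycle and pyruvate dehydrogenase, 8 were higher in host and 14 in donor cells, against 8.61% and 22.7% of all genes, among them Idh3a (0.32 and 0.66), Mdh2 (0.22 and 0.40) and Dlat (0.39 and 0.63). Of 78 mitochondrial ribosomal proteins, 23 were higher in host cells and 65 higher and 1 lower in donor cells, among them Mrpl12 (0.38 and 0.65). Cytochrome c1 (Cyc1) and the acyl carrier protein Ndufab1 were higher in both, by 0.23 and 0.28 in host and 0.40 and 0.44 in donor cells. Atpif1, the inhibitor of ATP synthase hydrolysis, was higher by 0.29 in host (edgeR adjusted p 0.046) and 0.59 in donor cells (3.43e-05).

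Assembly factors of the complexes were counted in the same way. Those of complex IV had 2 of 21 higher in host and 8 of 21 in donor cells, against 8.61% and 22.7% of all genes, and those of complex I 0 of 15 and 6 of 15, with Ecsit at 0.64 in donor cells. Complex III had 0 of 6 and 3 of 6 (Bcs1l 0.48), complex V 1 of 4 and 3 of 4 (Tmem70 0.32 in host cells), and complex II 0 of 4 in host cells and 1 higher and 1 lower in donor cells. Of the subunits encoded by mitochondrial DNA, 0 of 11 tested passed in host cells, and in donor cells 0 of 12 were higher and 1, mt-Nd3, was lower (log2 difference -3.05 from 1 to 8 counts in donor libraries, but -0.41 from the deposited TPM). Of 13 regulators of mitochondrial biogenesis, 3 were lower in host cells and 2 were higher and 5 lower in donor cells. Ppargc1a, a coactivator of these genes, had log2 differences of -0.81 and -2.81, from low counts. It held 7 to 30 counts in host, 3 to 7 in donor and 17 to 47 in control libraries. Tfam, a mitochondrial DNA packaging factor, had log2 differences of -0.25 and -0.32. In stroma, Cox11 (-1.04, edgeR adjusted p 0.0293) and mt-Nd3 (-1.19, 0.0247) were lower and no other gene of these lists passed, and in CD11b cells none did.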

How the data were processed

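RNA of 43 sorted mouse marrow samples was sequenced. The authors deposited gene counts and TPM; per the submitters' processing notes, the tools were STAR 2.7.3a, featureCounts of Subread 1.6.2 and RSEM 1.3.3 with GRCm39. Which tool made which table was not given in the sources used here. Symbols came from GENCODE M21. Samples were grouped by their titles; donor library N204 has a title that says donor and a source label that says recipient-derived, and the title was used.

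Counts were tested with edgeR 4.0.16 (R 4.3.3): filterByExpr, TMM, quasi-likelihood test, sex as a covariate except in the all-male CD11b cells, Benjamini-Hochberg over all genes tested and a threshold of 0.05. DESeq2 1.42.0, limma 3.58.1 (voom, and trend on log2 of TPM plus 1 or 0.1), other scalings and filters, each sex alone, blocks and leaving out each library were alternatives. On simulated counts the test recovered 66.7% of genes changed by a log2 of 0.5 for host cells, 71.2% for donor cells, 3.0% for stroma and 16.7% for CD11b cells. The simulation changed 200 genes, whereas the real host fit called 1211 higher and 1101 lower. These rates are therefore a check of the fit and not the power for the members.

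Day of euthanasia (per the labels) and animal pair the samples. Deviations from group means correlated by 0.254 to 0.353 for 5 same-day pairs in the host comparison, 0.177 to 0.347 in the donor comparison, 0.214 to 0.678 for the 7 shared animals and 0.183 to 0.665 for 5 pairs in stroma; in CD11b cells the range was -0.064 to 0.064. Of 125 pairs of libraries of a group, 0 held identical counts.

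The members and gene lists were chosen with earlier results of these data known. Members named are the 2 with the smallest p of each complex in a comparison, those that passed against the main direction and a set of core subunits and paired forms; others were named after their values were seen.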

Additional observations from a re-analysis of the deposited data

Results flagged for a closer look

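In groups of 4 to 10 libraries, a library was singled out when its gap to the nearest of the others was large for the group's range (Dixon's 95% value). Of 170 groups of values tested, 51 held such a library, where chance gives about 1 in 20, but the values of 1 library are not independent of each other.

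Control N051 stood above the other controls in the share of complex I (0.416% of transcripts, the others 0.338 to 0.372%) and complex III (0.164%). It also stood above them in CPM of Atp5g2 (95.6), Cox4i1 (281), Cox6a1 (115.9), Cox6b1 (114), Cox7a2 (81.7), Cox7a2l (181), Cox8a (163), Ndufa4 (99.3), Sdhb (72.2), Uqcrq (73.4) and Uqcr11 (41.5), and below them in Uqcrc1 (129.4).

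Stroma of control N093 stood above the other control stroma in the member share (2.97%, the others 2.38 to 2.53%) and in the shares of complex I (1.01%), III (0.387%), IV (0.661%) and V (0.809%). It was also highest in CPM of Cox6b1 (234), Ndufs1 (154) and Uqcrc2 (194).

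Stroma of transplanted N032 stood above its group in the member share (3.96%, the others 1.91 to 2.38%) and in every complex, at 1.28% for I, 0.125% for II, 0.550% for III, 0.898% for IV and 1.10% for V. In complex V it was highest in CPM of Atp5g1 (455), Atp5g2 (94.7), Atp5g3 (381) and Atp5h (314). In complex IV it was highest in Cox4i1 (566), Cox5a (143), Cox6a1 (446), Cox6b1 (344), Cox6b2 (78.0), Cox7a2 (230.0) and Cox8a (328). In complexes I to III it was highest in Ndufa12 (245), Ndufa4 (321), Ndufs4 (72.6), Sdhb (367), Sdhd (412), Uqcrc2 (262) and Uqcrfs1 (285).

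Host N269 stood below the other host libraries in Cox6a2 (2.27 CPM, the others 3.96 to 4.92) and above them in Sdhc (84.2, the others 51.5 to 65.3). Host N005 was highest in Sdhb (76.2 CPM), donor N014 in Atp5g1 (94.9 CPM, the others 64.9 to 77.7), and stroma of transplanted N269 was lowest in Cox6c2 (0.0714 CPM).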

How the results depend on the processing

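No result changed direction in a called value. For host cells (17 higher), the count was 11 with no low-count filter, 27 on TPM plus 1 or plus 0.1, 1 in males and 0 in females alone, and 10 to 46 without 1 library. For donor cells, 15 were higher in males alone and 47 to 69 without 1 library; 1 in place of 2 was lower with total-count scaling, on both TPM scales and in each sex alone, and 1 to 2 without 1 library. For donor against host cells (7 higher), the count was 1 with total-count scaling, 4 with upper-quartile scaling, 0 on both TPM scales and in each sex alone, 35 with the animal as replicate block and 0 to 15 without 1 library. The 2 lower members were 1 with total-count scaling, on both TPM scales and in males, 0 in females, and 2 without any 1 library. In stroma, leaving out 1 library gave 0 to 2 lower, and 0 to 29 for stroma minus host, where the animal as replicate block gave 0 with all libraries and 10 without N032. All other counts stayed at 0. The counts above have no share of all genes beside them here. They show how calls vary with the setting and are not a result about the members. The day block gave 25 higher in host and 69 in donor cells, against 6.39% and 22.4% of all genes. It used 5 same-day pairs each, without controls N051, N288 and N093 or animals N005 and N032 in the group difference. Apart from the members named in the report, the block changed no other named call in host, donor or stroma comparisons. Of the values of single named members under other settings with all libraries, 259 in host cells kept their direction and side of the threshold, 46 no longer passed and 20 newly passed; in donor cells these were 302, 20 and 3. With the CD11b design, changes of 0.5 on the log2 scale were rarely recovered.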

Other observations

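Other genes with a low level in donor cells, chosen after their values were seen, also had every donor library below every control, as Cox6a2 did. Siglech, a surface lectin known from plasmacytoid dendritic cells, was at 18.7, 27.6 and 45.8 TPM (lowest, median, highest) in controls, 14.3, 17.5 and 19.9 in host and 3.57, 5.64 and 10.5 in donor cells. Ccr9, a chemokine receptor also known from those cells, was at 5.45, 10.6 and 15.1, then 3.95, 5.72 and 8.14, then 0.88, 1.58 and 3.06 TPM. Klk1 was at 4.59, 7.03 and 11.4, then 0.67, 1.83 and 2.64, then 0.30, 0.59 and 0.94 TPM. Its host libraries thus lay wholly below controls, whereas Cox6a2 overlapped, at 6.27 to 16.4 TPM in host and 7.95 to 22.4 in controls. In control CD11b cells Siglech was at 0.33 to 0.76 TPM, where Cox6a2 was at 0.14 to 0.24. Whether Cox6a2 RNA in these libraries comes from plasmacytoid dendritic cells was not tested, and genes chosen for a low donor level cannot decide it.

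The deposited counts and TPM did not always tell the same story. For mt-Nd3, donor libraries held 1 to 8 counts and controls 17 to 46, a log2 difference of -3.05 by edgeR, while TPM was 780 to 1376 and 1221 to 1745, a log2 difference of -0.41 (limma adjusted p 0.0226). Among the 78 members tested in donor cells, the log2 difference on the TPM scale minus that from counts ran from -0.05 to 0.40 with a median of 0.04. The largest gap belonged to Ndufb8, a complex I subunit, at 0.09 from counts (edgeR adjusted p 0.461) and 0.49 from TPM (limma adjusted p 4.17e-04).

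The name rule left out Ndufb1-ps, whose name marks it as a pseudogene although it held 724 to 1071 counts and 109 to 147 TPM in controls. It did not pass in host (0.13, edgeR adjusted p 0.403) or donor cells (0.17, 0.154).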
